A study of Mus musculus with 4 samples.

Results

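The widest stretches of open chromatin common to cultured mouse oligodendrocyte progenitor cells and oligodendrocytes were collected from 4 peak lists. Overlapping or touching peaks of the lists were merged, and a region was kept when it was 1500 bp or wider and held a peak in all 4 lists. Of 229743 merged regions, 55466 were shared by all 4 lists, and 1554 of these were wide (0.676% of the merged and 2.80% of the shared regions). The other 53912 shared regions are called ordinary here. A further 11 regions reached 1500 bp without a peak in every list, 8 of them with peaks in 3 lists and 3 with peaks in 2.

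An open region is a stretch of DNA that is not wrapped tightly by nucleosomes, so that a transposase can cut it. Ordinary accessible sites span about the length left free by displaced nucleosomes, whereas wide ones are typical of CpG islands, the GC-rich promoters of housekeeping and developmental genes, and of clustered enhancers. Oligodendrocyte progenitor cells (OPCs) divide in response to PDGF and FGF. Oligodendrocytes (OLs), their descendants, leave the cell cycle, extend processes and make myelin.

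Chromatin was probed by Omni-ATAC-seq, which uses Tn5 transposase to insert adapters into open DNA, on 50000 cells per library (30 min at 37 °C). Mouse epiblast stem cells of the lines 129O1 and EpiSC5 had been turned into OPCs without sonic hedgehog (SHH). These cells were grown with bFGF and PDGFA (20 ng/mL each), sorted after 4 passages for CD140a and NG2, and expanded. The OL groups were cells of the same lines sorted for the O1 antigen. Each group has 2 libraries, 1 per line (replicate 1 is 129O1, replicate 2 is EpiSC5). The strains given are 129SvEv and 129S1/SvImJ, tied to the lines only by word order. Independent differentiations are not stated, so a p-value here reflects the spread among these libraries, which may be technical. No read counts are given, so depth is unknown. The measure is the number of base pairs of a region that peaks cover, and a shorter covered length cannot be told apart from fewer cells in which the sequence was open. Of the genes of the OPC sort antigens, neither Pdgfra (CD140a) nor Cspg4 (NG2) had a wide shared region.

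The sequences show what lies at such regions. RefSeq promoter entries of GRCm38.p6 (the assembly also named mm10) start 250 bases before a gene's start and end 50 bases after it, and 1470 entries of 1216 genes had their start in a wide region. For 5 of these the 250 bases before the start are printed 5′ to 3′ along the gene, with every CpG in capitals. Sp3 (chr2:72980447-72980696, minus strand), a zinc-finger factor that binds GC boxes, is shown as one of the widest regions, and Ugt8a (chr3:125938653-125938902, minus strand), the enzyme of galactocerebroside synthesis, as the myelin gene of the set. Spred2 (chr11:19924192-19924441, plus strand), an inhibitor of Ras-ERK signalling, and Fabp7 (chr10:57784673-57784922, plus strand), a lipid-binding protein of radial glia and progenitors, had less covered sequence in OLs. Tmem88b (chr4:155785875-155786124, minus strand), a transmembrane protein gene, had more.
Sp3: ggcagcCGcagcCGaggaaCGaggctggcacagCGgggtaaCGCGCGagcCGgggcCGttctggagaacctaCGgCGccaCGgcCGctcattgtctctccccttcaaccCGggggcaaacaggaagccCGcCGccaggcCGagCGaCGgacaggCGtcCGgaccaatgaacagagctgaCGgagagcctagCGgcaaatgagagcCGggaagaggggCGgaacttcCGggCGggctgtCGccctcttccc
Ugt8a: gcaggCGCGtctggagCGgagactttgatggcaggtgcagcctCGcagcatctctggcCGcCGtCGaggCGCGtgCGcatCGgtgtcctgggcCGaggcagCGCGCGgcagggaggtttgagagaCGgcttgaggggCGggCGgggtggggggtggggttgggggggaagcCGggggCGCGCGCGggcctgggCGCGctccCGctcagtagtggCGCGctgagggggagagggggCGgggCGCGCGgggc
Spred2: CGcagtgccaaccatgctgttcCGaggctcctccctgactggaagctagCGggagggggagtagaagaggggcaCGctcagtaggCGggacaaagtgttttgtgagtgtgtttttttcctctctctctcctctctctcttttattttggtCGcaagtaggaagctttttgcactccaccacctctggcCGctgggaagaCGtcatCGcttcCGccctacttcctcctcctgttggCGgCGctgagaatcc
Fabp7: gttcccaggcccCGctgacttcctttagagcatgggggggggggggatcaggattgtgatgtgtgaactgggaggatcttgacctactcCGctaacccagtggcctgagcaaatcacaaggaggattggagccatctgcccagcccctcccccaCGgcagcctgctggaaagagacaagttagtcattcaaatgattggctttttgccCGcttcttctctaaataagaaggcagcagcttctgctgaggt
Tmem88b: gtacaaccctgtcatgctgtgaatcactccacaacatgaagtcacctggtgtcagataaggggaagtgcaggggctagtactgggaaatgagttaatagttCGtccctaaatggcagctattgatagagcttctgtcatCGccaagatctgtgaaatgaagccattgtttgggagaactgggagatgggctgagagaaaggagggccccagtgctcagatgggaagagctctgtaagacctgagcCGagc
The 5 stretches hold 28, 32, 12, 4 and 3 CpGs in that order. Sp3 and Ugt8a are thus dense in CpG, and Fabp7 and Tmem88b are sparse.

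Promoters in wide regions were richer in GC and in CpG than promoters in ordinary shared regions. Over the 300 bases of an entry, the median GC content was 67.7% in wide regions, 62.0% in the 10037 entries of ordinary shared regions, 56.0% in the 1027 entries with peaks in 1 to 3 lists and 47.7% in the 8729 entries without a listed peak. The ratio of observed to expected CpG had medians of 0.856, 0.789, 0.410 and 0.204 in the same order. It reached 0.6 or more in 88.0% of the entries in wide regions and in 78.2% of those in ordinary ones. It was 0.276 for Fabp7 and 0.212 for Tmem88b, so these 2 belong to the minority below that value.

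Short motifs, searched on both strands, did not all follow this order. The GC box GGGCGG was found in 78.6% of the entries in wide regions and in 68.4% of those in ordinary regions, against 46.2% of all 21263 entries. The TATA box TATAAA was present in 3.54%, 5.98% and 12.6% of them. The ETS-type motif CCGGAAG went the other way between the groups of shared regions, with 13.4% in wide and 19.8% in ordinary ones (11.6% of all entries), and the E-box CANNTG was found in 51.1%, 62.3% and 69.0%. CCAAT differed little (36.7%, 38.7% and 38.2%). GGGCGG contains a CpG, and its share moved with CpG content. No test was made of these shares.

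Most wide regions lay at gene ends. Of the 1554, 1226 (78.9%) came within 1 kb of either end of a protein-coding gene, 239 (15.4%) lay in the rest of gene bodies and 89 (5.73%) outside protein-coding genes. The last class includes the regions on mitochondrial DNA and unplaced sequence, where no gene positions were used. Ordinary shared regions had 23.5%, 42.6% and 33.9% in these classes. A listed protein-coding start was held by 1065 of the 1496 wide regions on chromosomes with promoter entries (71.2%), against 16.1% of ordinary shared regions. Chromosome 18, with 54 wide regions, had no promoter entries and is left out of these shares.

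The share at starts climbed with width and then levelled off. It was 0.814% in shared regions under 250 bp, 21.8% from 500 to 999 bp and 59.3% from 1000 to 1499 bp. Above the width threshold it was 70.6% up to 1749 bp, 73.5% up to 1999 bp and 69.8% from 2000 bp. The threshold therefore cuts a gradual rise, and among the wide regions a greater width did not go with a greater share of starts.

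**Figure D1:**
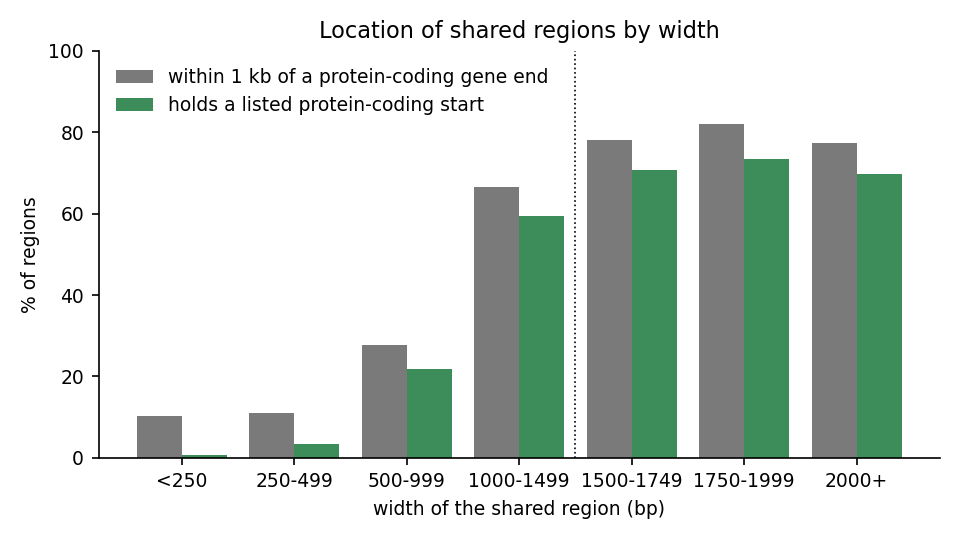
Share of shared regions within 1 kb of a protein-coding gene end (grey, % of regions) and share holding a listed protein-coding start (green, % of regions on chromosomes with promoter entries), by region width in bp. The dotted line marks the threshold of 1500 bp, beyond which the green bars stay between 69.8% and 73.5%.

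Wide regions often held starts of neighbouring genes. Of the 1065 with a listed start, 152 (14.3%) held starts of at least 2 genes, against 7.32% of the ordinary shared regions with a start. The starts pointed away from each other in 131 (12.3%, against 6.32%). One such region joined Mfsd11 to Srsf2, a splicing factor gene, and another joined Hnrnpk, an RNA-binding protein gene, to Rmi1. Other gene kinds were also met: 25 of 408 tRNA genes (6.13%), 24 of 1228 microRNA genes (1.95%) and 0 of 1340 snoRNA genes overlapped a wide region. Of protein-coding genes 7.69% did. Ordinary shared regions overlapped 46.3% of the tRNA, 8.06% of the microRNA and 4.03% of the snoRNA genes.

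Around a start the open stretch reached further into the gene than away from it. In the 649 wide regions with exactly 1 listed start, the merged region extended a median of 664 bp upstream (quartiles 435 and 904) and 1028 bp downstream (quartiles 792 and 1259). The downstream arm was the longer one in 460 of them (70.9%). The start itself was covered in 99.4% and 99.7% of these regions in OPCs and in 96.8% and 97.4% in OLs (129O1 first). At 500 bp upstream the shares were 62.2% and 65.6% in OPCs and 53.0% and 51.3% in OLs. At 1000 bp downstream they were 44.8% and 46.8% in OPCs and 29.1% and 30.4% in OLs. The OL libraries thus kept the centre and had less of both flanks than either OPC library. These shares were not scaled, and the regions were chosen by width, which OPC lists mostly set. The part of this in the flanks was not tested.

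**Figure D2:**
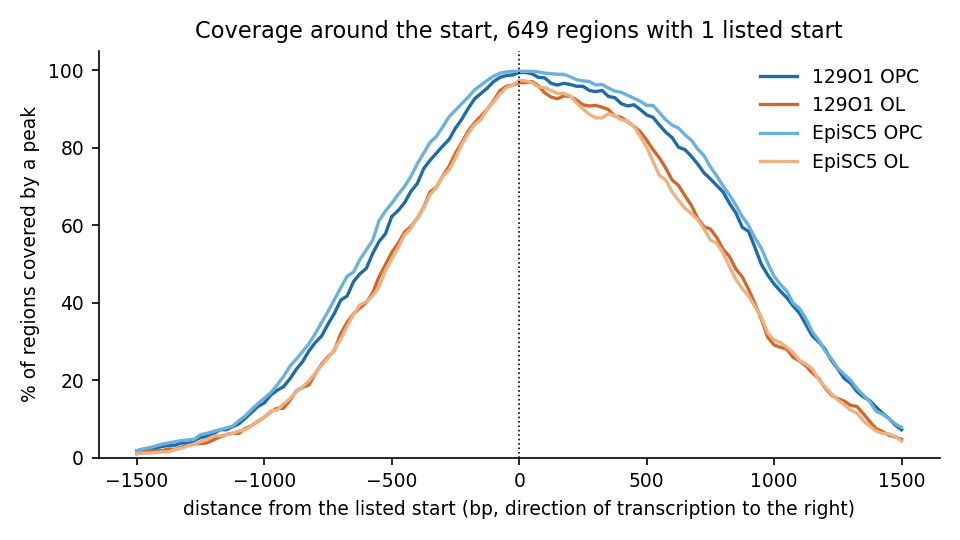
Percentage of the 649 wide regions with 1 listed start that a peak covers at each distance from the start (bp, transcription to the right), 1 line per library. All 4 libraries cover the start in 96.8% or more of the regions, and both OL lines run below both OPC lines on the flanks. Shares are not scaled, and OPC lists set most of the widths that chose the regions.

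Widths ran from 1500 to 2788 bp, with a median of 1668.5 bp and quartiles of 1575 and 1823 bp. There were 176 regions of 2000 bp or more (11.3%) and 7 of 2500 bp or more. Width chose the regions, so it is given as a description. Ordinary shared regions had a median width of 458 bp. The 1554 regions spanned 2.69 Mb and were spread out, with a median gap of 354 kb between neighbours and 28 regions within 10 kb of another. Their share of all shared regions was lowest on chromosome 6 (2.27%) and highest among the autosomes on chromosome 17 (3.69%).

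The libraries filled these regions unequally, and the EpiSC5 OPC library stands apart. Covered length had medians of 1553 bp in 129O1 OPC, 1406 bp in 129O1 OL, 1609 bp in EpiSC5 OPC and 1391 bp in EpiSC5 OL. The EpiSC5 OPC list had the most covered base pairs in 988 regions, the 129O1 OPC list in 448, and the OL lists in 48 (129O1) and 70 (EpiSC5). A lone unbroken peak covered 84.9% of the regions in EpiSC5 OPC, 51.2% in 129O1 OPC, and 39.3% and 37.9% in the OL libraries of 129O1 and EpiSC5. The shortest peak of a list was 100 bp in EpiSC5 OPC and between 78 and 84 bp in the others, and the part of this in the widths was not tested. Without the EpiSC5 OPC list the same rule gave 965 regions, and without any other list between 1352 and 1503. From the 129O1 lists alone it gave 861, and from the EpiSC5 lists alone 1276.

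Regions covered by 1 peak in both OPC lists and by more than 1 in both OL lists numbered 228, and the converse held for 11. A lone peak in all 4 lists was found for 287. The wide regions took 6.28% and 5.82% of the covered sequence of the OPC lists and 6.13% and 5.18% of that of the OL lists, in the order 129O1, EpiSC5. The means were 6.05% ± 0.328 and 5.65% ± 0.671 (SD, n = 2). The share was lower in OLs within each line. Length chose the regions and 2 libraries against 2 cannot give an exact permutation p below 0.333, so no significance is attached to it.

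**Figure D3:**
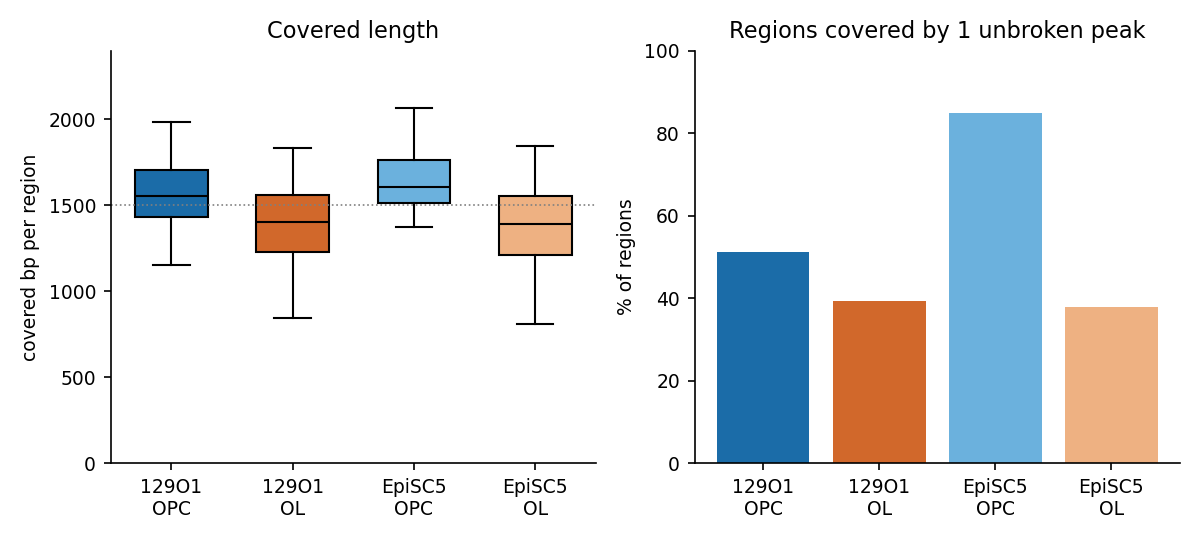
Left, covered bp per wide region in each library (box, quartiles with the median; whiskers, 5th and 95th percentiles; dotted line, 1500 bp). Right, % of the 1554 regions covered by 1 unbroken peak, which is 84.9% in EpiSC5 OPC and between 37.9% and 51.2% in the others.

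Wide did not mean tall. By the authors' fold enrichment, ranked within each list, the highest peak of a wide region lay at a median percentile of 49.3 and 50.4 in the OPC libraries, against 54.8 and 54.7 in OLs. For ordinary shared regions the medians were between 65.3 and 68.9. Only 3 to 8 wide regions per list were in the top 10% by fold. By the authors' q value the order was turned, with wide regions at median percentiles from 87.4 to 89.1 and ordinary ones from 69.6 to 72.5.

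From OPC to OL the covered length was lower in most wide regions in both lines. Summed over the regions, OLs had 0.884 of the OPC length in 129O1 and 0.831 in EpiSC5. The median change was -159 bp in 129O1 and -237.5 bp in EpiSC5, and the length was lower in 1319 regions (84.9%) and 1435 regions (92.3%). It was lower in both lines in 1269 (81.7%) and higher in both in 68 (4.38%). Among ordinary shared regions of 1000 to 1499 bp, 76.1% were lower in both lines, and among all ordinary ones 56.0%. The summed length differed less between these groups. OLs had 0.883 (129O1) and 0.820 (EpiSC5) of the OPC length in regions of 1000 to 1499 bp, and 0.903 and 0.810 in all ordinary ones.

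Within each line the OL list was shorter as a whole. Its total was 35.0 Mb against 38.6 Mb for OPCs in 129O1, and 41.2 Mb against 44.1 Mb in EpiSC5. The EpiSC5 OL list was thus longer than the 129O1 OPC list. Scaling each list to the mean list total made the change in wide regions smaller. After scaling, the median log2 difference over wide regions was -0.01 in 129O1 and -0.11 in EpiSC5, and 52.1% and 75.6% of the regions were lower. Among ordinary shared regions of 1000 to 1499 bp, 51.6% and 74.8% were lower after scaling. Because lengths in every list enter the rule, and OPC lists set most widths, the regions were also chosen in 1 line and measured in the other. Those chosen from the 129O1 lists and measured in EpiSC5 (861 regions) changed by a median of -147 bp, with 91.1% lower, or -0.03 log2 after scaling. Those chosen from EpiSC5 and measured in 129O1 (1276 regions) changed by -125 bp, with 82.9% lower, or 0.02 after scaling. The direction of the scaled median therefore differed between these selections. Across the 1554 regions, which share the same libraries, the scaled log2 differences of the lines had a Pearson r of 0.746 and a Spearman rho of 0.655.

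The lost length came from the edges more than from gaps. A wide region lost a mean of 180 bp in 129O1 and 279 bp in EpiSC5. Retreat of the outer edges made up 77.2% and 61.7% of this, and new gaps inside the region 22.8% and 38.3%. In regions with 1 start the upstream edge retreated by a mean of 60.7 and 81.6 bp and the downstream edge by 96.3 and 101.3 bp. The gaps gained 49.2 and 102.8 bp. These lengths were not scaled, and the part of the width rule in them was not tested.

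**Figure D4:**
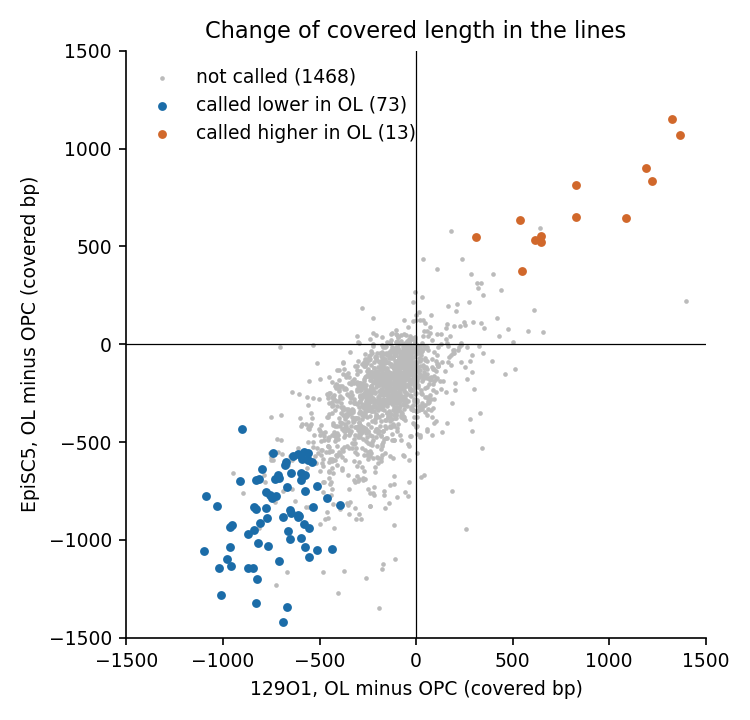
Change of covered bp from OPC to OL in 129O1 (x axis) and EpiSC5 (y axis), 1 point per wide region, without scaling. The 73 regions called lower lie in the lower left quadrant, the 13 called higher in the upper right, and most uncalled points (grey) lie just below 0 in both lines.

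Of the wide regions 73 (4.70%) had less and 13 (0.837%) more scaled coverage in OLs by limma at an adjusted p below 0.05, and below a region is called when it passed in this scaled fit without the cell line as a block. Over all 54534 merged regions tested, 9.91% were called lower and 10.6% higher, and among ordinary shared regions 5.22% and 3.12%. Covered length is part of the rule and a peak in every list was required, so nothing is read from these shares. The median log2 difference was -0.06 in wide regions and -0.05 in all tested regions, and 0.020 in wide regions with median-of-ratios scaling. Without scaling, 406 wide regions were called lower (26.1%) and 11 higher (0.708%), where the background was 13.6% and 8.15% and the median of all tested regions -0.14. Of the 73 regions called lower, 60 were also called without scaling, and 9 of the 13 called higher. The count of lower calls thus rests on the scaling, and the lower calls were 84.9% of the calls with it, 97.4% without it and 65.6% with median-of-ratios scaling. With the cell line as a block, 216 wide regions were lower and 28 higher. Leaving out any 1 library reduced the counts to between 3 and 5 lower and between 0 and 5 higher. The regions in Gnb2 and near Sall3 were called in each of these fits, and each other region named below lost its call without at least 1 library.

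In the scaled fit the called regions were placed otherwise than the other wide regions. Calls were not counted by location for ordinary or all tested regions, so this is not read as particular to wide ones. Lower calls were 3.18% of wide regions at gene ends, 7.11% of those in gene bodies and 19.1% of those outside genes. Gene ends took 53.4% of the regions called lower and 23.1% of those called higher, against 80.7% of the uncalled ones. This order did not hold without scaling, where 25.4%, 30.1% and 24.7% of the 3 classes were called lower. The regions called lower had median lengths of 1451 bp (129O1) and 1602 bp (EpiSC5) in OPCs, and 744 and 784 bp in OLs. Those called higher had 669 and 869 bp in OPCs but 1495 and 1527 bp in OLs. The width rule and the call together largely set such lengths, so they are given as a description only.

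The largest losses lay away from promoters, and values are given for OPC and then OL, each in the order 129O1, EpiSC5. A region 201594 bp from Lacc1 (chr14:76818603-76820145) had 923 and 1535 bp in OPCs but 235 and 115 bp in OLs (log2 difference -1.82, SE 0.27, limma adjusted p = 0.0118). A second, 63794 bp from Sall3, a spalt-family transcription factor gene (chr18:81050815-81052439), had 1298 and 1574 bp against 288 and 293 bp (-1.64, SE 0.12, adjusted p = 0.00101). In neither region did the groups overlap. A call on these same lengths makes such separation likely, here and in the called regions below, so it adds no support. The OPC values near Lacc1 lay far apart.

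Another intergenic region, 218931 bp from the kinase gene Csnk1g3 (chr18:54174615-54176138), had 1227 and 1524 bp in OPCs but 407 and 511 bp in OLs (-1.16, SE 0.11, adjusted p = 0.00247). Inside Gnb2, which encodes a G protein beta subunit (chr5:137530601-137532291), the lengths were 1451 and 1668 bp against 470 and 570 bp (-1.20, SE 0.11, adjusted p = 0.00166). In both regions the OL lengths lay well below those of either OPC library, and the lines were close to each other in OLs.

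Within Frmd4b, a FERM-domain scaffold gene (chr6:97395420-97396945), OPCs had 1017 and 1526 bp and OLs 349 and 183 bp (-1.56, SE 0.27, adjusted p = 0.0183). For Adgrl3, a latrophilin adhesion receptor gene (chr5:81518851-81520356), the values were 1108 and 1440 bp against 398 and 334 bp (-1.28, SE 0.16, adjusted p = 0.00625). The region in the cell adhesion gene Dscaml1 (chr9:45677291-45678919) had 1478 and 1582 bp against 635 and 437 bp (-1.14, SE 0.21, adjusted p = 0.0237). In the helicase gene Chd9 (chr8:90869070-90870815) there were 1370 and 1730 bp against 273 and 674 bp (-1.35, SE 0.27, adjusted p = 0.0274, and 0.0667 without scaling). In each of these the OL values stayed below both OPC values.

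Of the 13 regions called higher in OLs, 8 lay in gene bodies, and without scaling 5 of 11 did. Gene bodies held 15.4% of all wide and 49.9% of all merged regions. In Tns1, which encodes a tensin that ties integrins to actin (chr1:74041422-74043105), OPCs had 170 and 377 bp and OLs 1495 and 1527 bp (1.99, SE 0.21, adjusted p = 0.00337). The OL libraries differed from each other by far less than the OPC libraries did.

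Frmd8 (chr19:5856308-5857845) had 283 and 705 bp in OPCs but 1506 and 1538 bp in OLs (1.48, SE 0.28, adjusted p = 0.0236). The zinc-finger gene Zfp827 (chr8:79144868-79146473) had 426 and 762 bp against 1512 and 1406 bp (1.20, SE 0.21, adjusted p = 0.0197). Both calls were lost without scaling, at adjusted p = 0.0679 and 0.0534. Trpm1, a cation channel gene (chr7:64158661-64160222), had 489 and 676 bp against 1317 and 1488 bp (1.14, SE 0.13, adjusted p = 0.00374). Its call held without scaling.

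At Tmem88b (chr4:155783909-155786186), whose CpG-poor start is printed above, OPCs had 841 and 1058 bp and OLs 2207 and 2127 bp (1.15, SE 0.14, adjusted p = 0.00571). With 2278 bp of merged width it was wider than any other region named as higher. Outside genes, a region 50372 bp from 4933402D24Rik (chr1:63819639-63821373) had 739 and 987 bp against 1566 and 1635 bp (0.87, SE 0.13, adjusted p = 0.0116). Another, 4085 bp from Sbpl (chr17:23959358-23960862), had 669 and 738 bp against 1286 and 1271 bp (0.81, SE 0.13, adjusted p = 0.0139). In all 3 the groups were apart by more than the spread within either, which the choice by called difference favours.

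**Figure D5:**
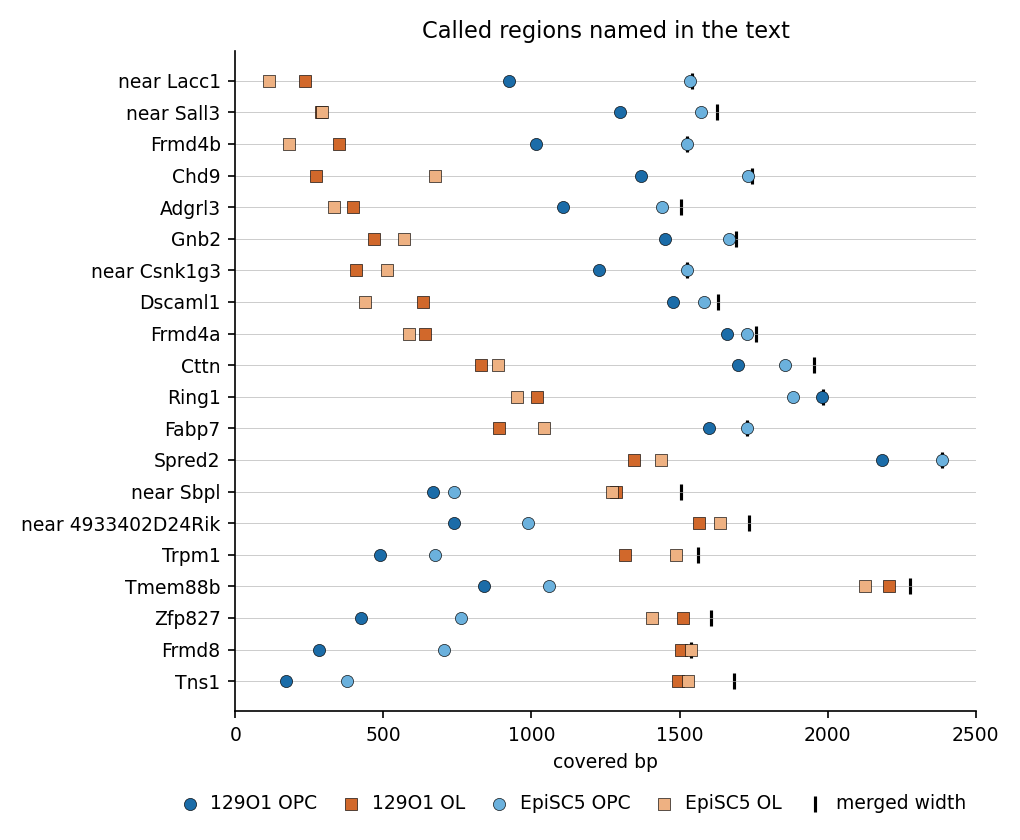
Covered bp in each library (circles, OPC; squares, OL; dark, 129O1; light, EpiSC5) and merged width (tick) of 20 called regions chosen by the naming rule or for their microRNA. In the upper 13 rows both squares lie left of both circles, and in the lower 7 rows to the right.

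Among genes of the progenitor, Fabp7 was called lower. Its region (chr10:57783320-57785046) had 1598 and 1727 bp in OPCs but 890 and 1042 bp in OLs (-0.58, SE 0.11, adjusted p = 0.0236). Of 30 OPC identity genes 3 had a wide region (10.0%, where 7.34% of all 21887 protein-coding genes had one at a listed start or within 1 kb of an end, the count behind each list's percentage below). The other two were Sema5a, a semaphorin gene (1713 and 1939 bp against 1135 and 1383 bp, not called, adjusted p = 0.079, but 0.0141 when lines were blocked), and Luzp2 (893 and 1505 bp against 1310 and 1638 bp, not called). In Luzp2 the OL values lay above the OPC value of their own line in both lines, but the groups overlapped. Over all wide regions 4.70% were called lower and 0.837% higher, and without scaling 26.1% and 0.708%. With the block the shares were 13.9% and 1.80%. Nothing is read from the number of calls in this list or any list below.

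Of 30 genes of newly formed oligodendrocytes 8 had a wide region, 7 of them at a listed start or an end (23.3%, where 7.34% of all genes had one, a difference that was not tested). The list was drawn up with earlier results of these data known, as were the others. Frmd4a, a cell polarity scaffold gene (chr2:4400874-4402632), had 1660 and 1728 bp in OPCs but 641 and 587 bp in OLs (-1.12, SE 0.14, adjusted p = 0.00666). Tns3, a tensin gene named after its values were seen (chr11:8467621-8469138), had 1373 and 1487 bp against 567 and 574 bp (-0.98, SE 0.12, adjusted p = 0.00561). Both regions thus had less covered sequence in OLs in both lines. Fyn, the kinase gene that acts downstream of axonal contact in oligodendrocytes, had 1654 and 1652 bp against 1516 and 1611 bp, and Rap2a had 1774 and 1950 bp against 1723 and 1868 bp. Neither was called. Without scaling 4 of the 8 regions were called lower, those of Frmd4a, Tns3, Arhgap5 and, outside the naming rule, Cnksr3. Of all wide regions 26.1% were.

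Of 35 myelin genes 1 had a wide region (2.86%, beside 7.34% of all genes), and for a list of this size nothing is read from that count. It was Ugt8a (chr3:125937610-125939119), with 1430 and 1482 bp in OPCs but 1388 and 1277 bp in OLs, not called, and a lone peak in every list. The start of this gene is the CpG-rich one printed above. Ribosomal protein genes had 1 of 83, at Rdh10 and Rpl7 (1716 and 1783 bp against 1440 and 1461 bp, not called, but called lower without scaling). None of 22 neuron, 17 vascular and mesenchymal, 13 microglia, 15 pluripotency or 1110 olfactory receptor genes had one. Only listed genes are counted, and nothing is read from these counts for the shorter lists. Of 21 astrocyte genes 2 did, Atp1b2 and Sox9. Neither was called, but Atp1b2 was lower without scaling (adjusted p = 0.00551) and with the block (adjusted p = 0.0294).

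Of 37 chromatin regulator genes 18 had one (48.6%), the highest share of the 24 lists. Arid1b, a subunit of the BAF remodelling complex (chr17:4993956-4996471), had 2486 and 2457 bp in OPCs but 2236 and 2330 bp in OLs. Dnmt3a, a DNA methyltransferase gene, had 2280 and 2268 bp against 1927 and 1930 bp, and Ep300, a histone acetyltransferase gene, 1690 and 1947 bp against 1627 and 1665 bp. Kmt2a, a histone methyltransferase gene, had 1805 and 2028 bp against 1323 and 1324 bp. All 4 were lower in OLs in each line before scaling and none was called. No region of the 18 was called, where 4.70% of all wide regions were called lower, so the lack of calls is not read as stability. Their median log2 difference was -0.02. Of the 18, Kmt2a alone passed with the block, lower in OLs (adjusted p = 0.0248). Without scaling 3 of them were called lower, Dnmt3a, Kmt2a and, outside the naming rule, the acetyltransferase gene Crebbp. The share of all wide regions was 26.1%.

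FGF and ERK feedback genes, which are induced by the pathway they restrain, had 7 of 23 (30.4%). Spred2 (chr11:19923961-19926346) had 2185 and 2386 bp in OPCs but 1345 and 1436 bp in OLs (-0.54, SE 0.12, adjusted p = 0.0386), and was called. Its relative Spred1 had 1977 and 1769 bp against 1786 and 1680 bp and did not pass. Etv4, an ETS factor gene, had 1616 and 1779 bp against 1230 and 1242 bp, and the phosphatase gene Dusp4 1691 and 1800 bp against 1536 and 1500 bp. Each of these 4 was lower in OLs in both lines, and in Spred1 the groups overlapped. None of the 7 regions other than that of Spred2 was called, but Etv4 was lower without scaling (adjusted p = 0.0201) and with the block (adjusted p = 0.0404), as was, with the block only, the region that the list has through Spry4, outside the naming rule.

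Lineage transcription factor genes had 13 of 52, 12 of them at a start or end (23.1%), and none was called. Sox13, a SoxD factor gene, had 1837 and 1873 bp in OPCs but 1172 and 1257 bp in OLs (adjusted p = 0.0741, 0.00536 without scaling and 0.00837 with the block). Sox11, a progenitor factor gene, had 2146 and 1982 bp against 1686 and 1726 bp. In Sox9, which also marks astrocytes, the lengths were 1350 and 1726 bp against 1090 and 1230 bp. Klf13 had 1726 and 1707 bp against 1622 and 1761 bp, with overlapping groups. The median of the 13 regions was -0.14, and 5 of them were called lower without scaling (Sox13, Sox11, Etv4 and, outside the naming rule, Sox21 and Hey1). That stands beside 26.1% of all wide regions. With the block Sox13, Etv4 and Sox21 were lower and Sox3, also outside that rule, higher.

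Notch and BMP pathway genes had 8 of 39 (20.5%), immediate early genes 8 of 41 (7 at a start or end, 17.1%), and neither list had a called region. Without scaling 1 region of each was lower, at Egr1 (adjusted p = 0.0469) and, outside the naming rule, Hey1, and with the block that of Smad6, also outside it. Rbpj, the DNA-binding partner of Notch, had 2267 and 2343 bp in OPCs but 2116 and 2086 bp in OLs. Hes6 had 1681 and 1988 bp against 1598 and 1523 bp, and the BMP receptor gene Bmpr2 1466 and 1586 bp against 1427 and 1431 bp. Jund, an AP-1 subunit gene, had 1766 and 1889 bp against 1737 and 1758 bp, and Egr1 1961 and 2056 bp against 1770 and 1685 bp.

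Splicing and RNA-binding genes had 7 of 40 (17.5%), and their median was 0.10 (-0.0037 without scaling), where all wide regions had -0.06. The region between Mfsd11 and Srsf2 had 1531 and 1624 bp in OPCs but 1759 and 1717 bp in OLs, higher in OLs in each line and not called. Hnrnpk had 2058 and 2008 bp against 1848 and 1819 bp, and Hnrnpu 1651 and 1626 bp against 1563 in each OL library. Of the 7 regions, Hnrnpk alone was lower without scaling (adjusted p = 0.0415) and none passed with the block. Heat shock genes had 5 of 25 (20.0%), with Hspa8 at 1806 and 1882 bp against 1371 and 1248 bp, not called, but lower without scaling (adjusted p = 0.0167) and with the block (adjusted p = 0.0374).

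Of 38 cytoskeleton genes 4 had a wide region, 3 of them at a start or end (7.89%), and 1 region was called. This was Cttn, which encodes cortactin, a protein of branched actin (chr7:144469113-144471067), with 1696 and 1856 bp in OPCs but 828 and 886 bp in OLs (-0.80, SE 0.11, adjusted p = 0.00944). Kif1b, a kinesin gene, had 1837 and 1822 bp against 1804 in each OL library. Cell cycle genes had 4 of 34, 3 of them at a start or end (8.82%). Ccne2 had 2014 and 1985 bp against 1600 and 1418 bp and E2f1 1127 and 1571 bp against 812 and 736 bp, neither called. Sterol and fatty acid genes had 3 of 33, Fads2, Fasn and Insig1, none called. Without scaling Ccne2 (adjusted p = 0.0333), Fasn (adjusted p = 0.0445) and, of the cytoskeleton genes, Fmnl2 (adjusted p = 0.0190) were also lower.

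Histone genes had 10 of 72 (13.9%), which shared 5 regions. H2ac18 and H3c14 lay in one region of 2341 bp (2160 and 2308 bp in OPCs, 2090 and 2003 bp in OLs) and H2ac19 and H3c15 in one of 2117 bp (2059 and 2075 bp, 2083 and 2038 bp). These pairs are near-identical copies, so the split of reads between them is uncertain. Proteasome genes had 3 of 44, respiratory chain genes 6 of 96 and Hox genes 4 of 39 (3 at a start or end, 7.69%), with no called region. Psmb10, a proteasome gene, was lower without scaling (adjusted p = 0.0433).

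Several other called regions, named after their values were seen, lay at genes of known function. A region at Reln, which encodes the secreted guidance protein reelin (chr5:22343689-22345294), had 1593 and 1582 bp in OPCs but 640 and 659 bp in OLs (-0.97, SE 0.13, adjusted p = 0.00761). At Ptch1, the hedgehog receptor gene (chr13:63572347-63573909), the lengths were 1547 bp in each OPC library and 824 and 770 bp in OLs (-0.71, SE 0.15, adjusted p = 0.0319). Gli3, a hedgehog transcription factor gene (chr13:15462807-15464558), had 1561 and 1752 bp against 762 and 1116 bp (-0.62, SE 0.14, adjusted p = 0.0368, and 0.0697 without scaling).

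Pou3f1, a POU factor gene (chr4:124656524-124658692), had 1831 and 2108 bp in OPCs but 1065 and 1077 bp in OLs (-0.66, SE 0.12, adjusted p = 0.0228). A region 22807 bp from Sox9 (chr11:112810564-112812115) had 1369 and 1542 bp against 680 and 659 bp (-0.83, SE 0.13, adjusted p = 0.0127), whereas the one at the Sox9 end was not called. In the other direction, the region at Dusp15, a phosphatase gene, and its neighbour Ttll9 (chr2:152951146-152952735) had 884 and 869 bp against 1532 and 1390 bp (0.73, SE 0.16, adjusted p = 0.0382). The groups were apart in each, as the call makes likely.

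Mtss1, a gene for a membrane-bending actin regulator, had a called region in its body (chr15:59080112-59081805), with 1508 and 1535 bp in OPCs but 842 and 805 bp in OLs (-0.65, SE 0.14, adjusted p = 0.0353). A second one 69628 bp away (chr15:59153584-59155476) had 1447 and 1893 bp against 617 and 569 bp (-1.13, SE 0.15, adjusted p = 0.00721). Both were lower in OLs in each line. The genes with most wide regions were Camta1 and Rai1, with 3 each.

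A wide region at the start of Ring1, which encodes a Polycomb ubiquitin ligase, also held the microRNA genes Mir219a-1 and Mir219c (chr17:34024259-34026241, 1983 bp). It was picked with its values known, because mature miR-219 is known as an abundant microRNA of oligodendrocytes that represses progenitor genes. Mir219a-2 (chr2:29845689-29845709, minus strand) encodes the same mature miR-219a-5p and lay in no wide region, so the source of the mature form is not told by this region. The RefSeq sequence at the Ring1 locus (chr17:34025052-34025072 of GRCm38.p6, minus strand) is printed with the seed in capitals.
mmu-miR-219a-5p: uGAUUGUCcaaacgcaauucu
The region had 1981 and 1882 bp in OPCs but 1019 and 950 bp in OLs (-0.74, SE 0.16, adjusted p = 0.0355, and 0.00278 without scaling). The hairpin of Mir219a-1 (chr17:34024983-34025092, 110 bp) was wholly covered by peaks in all 4 libraries, and so was the Ring1 start at position 34024680. The length missing in OLs therefore lay in other parts of the region. Another region held Mir130b and Mir301b (1128 and 1592 bp against 771 and 1236 bp), and one Mir148b (738 and 1564 bp against 380 and 751 bp). In both the groups overlapped. Of the Mir301b hairpin 97 bp were covered in each OPC library, against 0 bp in 129O1 OL and 54 bp in EpiSC5 OL.

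None of the 10 widest regions was called. With the block 3 of them were lower, in Schip1 (adjusted p = 0.0132), at Atxn2 (adjusted p = 0.0146) and in Cpeb2 (adjusted p = 0.04996), and without scaling these and Tnpo2. The region at Tsc22d2 (chr3:58414576-58417363) was the widest, at 2788 bp, with 1965 and 2612 bp in OPCs but 2428 and 2459 bp in OLs. The next, in Schip1 (chr3:68493404-68496057, 2654 bp), had 2470 and 2637 bp against 1826 and 1896 bp. At Ing2, a chromatin reader gene (2639 bp), there were 2528 and 2639 bp against 2538 and 2303 bp. In Tsc22d2 and Ing2 the lines moved in opposite directions.

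Sp3 (chr2:72978515-72981064, 2550 bp) had 2495 and 2521 bp in OPCs but 2351 and 2360 bp in OLs, with the libraries close together. At Zfp41 (2556 bp) the lengths were 1912 and 2301 bp against 2340 and 2343 bp. The remaining 4 of the 10 widest besides Arid1b were Cpeb2, Fat3, Atxn2 and Tnpo2, at 2454 to 2506 bp, all lower in OLs in both lines.

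At the threshold, the narrowest members were the regions at Cnot2, Stat3 and Eif5, all of 1500 bp. Cnot2 had 1405 and 1454 bp in OPCs but 1168 and 1159 bp in OLs, Stat3 1480 and 1280 bp against 1419 and 1403 bp, and Eif5 1362 and 1431 bp against 1359 and 1269 bp. Just outside lay 3 regions of 1499 bp. One of these (chr4:45489133-45490631) had 1410 and 1429 bp in OPCs but 80 and 87 bp in OLs, and the others (chr11:31838318-31839816 and chr15:58888405-58889903) had between 1225 and 1499 bp in every library. Of the 1554 regions, 2 lay on mitochondrial DNA and 2 on unplaced sequence, and all 4 were covered by 1535 bp or more in every library.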

How the data were processed

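Omni-ATAC-seq peak lists of 4 libraries were analysed, 1 per cell type and line. The build was mm10 and the tools were MACS2, Picard, Bowtie2 (2.3.2) and Trim Galore (0.3.1), per the submitters' processing notes. Not given in the sources used here are the MACS2 version, its threshold, duplicate handling and any Tn5 shift. The authors called peaks per library. The deposited files give each peak's start, end and summit, a score, a linear fold (ratio) over background, and −log10 p and −log10 q, and the authors' fold and q were used only to rank peaks within a list. The peak calling sets widths, so a covered length depends on depth and threshold, which the lists do not give.

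Each list was scaled to the mean total of the lists, regions with a mean scaled length of at least 200 bp were kept, and the log2 of the length plus 200 bp was taken. The test was limma's (version 3.58.1, R 4.3.3, OL against OPC, moderated, mean-variance trend, two-sided, Benjamini-Hochberg over all 54534 regions, threshold 0.05). The added 200 bp makes fold differences of short lengths too small. The fit was tested on simulated data. Regions, lists and tests were chosen with earlier results of these data known. Named are the 10 widest regions, the 8 largest called differences each way, the 3 members nearest to the threshold and 3 just below it, up to 4 genes per list (24 lists) with the widest region, and any at Pdgfra or Cspg4. A region that this rule takes is not reported here. Others named are said to be chosen after their values were seen. Gene ends and promoters come from RefSeq for GRCm38.p6, and all list symbols matched. Starts were counted on chromosomes with promoter entries, which leaves out chromosome 18. Same-numbered libraries come from the same cell line, which pairs them, and their deviations correlated at 0.182 over 54534 regions. Python 3.11.15 was used for the rest.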

Additional observations from a re-analysis of the deposited data

Results flagged for a closer look

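In 11 of the regions chosen by the naming rule, the covered length moved in opposite directions in the lines from OPC to OL, and in none of them was this difference between the lines tested. With 1 library per cell type and line, such a pair of signs has no replicate behind it. At Tsc22d2 the change was 463 bp in 129O1 and -153 bp in EpiSC5. At Hoxa5 it was 343 bp and -530 bp, in the same order of lines, and at Ing2 10 bp and -336 bp. Smad1 had 60 bp and -331 bp, Btg1 44 bp and -348 bp, and Atp5j 47 bp and -224 bp. The smallest changes were at Hsp90b1 (12 bp and -45 bp), Hsp90ab1 (-64 bp and 52 bp) and H2ac19 (24 bp and -37 bp). At Stat3 the values were -61 bp and 123 bp, and at Klf13 -104 bp and 54 bp. In 8 of the 11 regions the EpiSC5 change was the negative one, and the EpiSC5 OPC list had 1127 peaks of 1500 bp or more, where the others had between 278 and 674. The part of this in the signs was not tested.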

How the results depend on the processing

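The number of wide shared regions was set by the width (8457 from 1000 bp, 176 from 2000 bp), by asking for 1500 covered bp in every list (282) and by the lists used (861 from 129O1 alone). Without 1 list it lay between 965 and 1503. Lower calls numbered 73 and became 406 without scaling, 118 with a mean coverage of at least 500 bp, 216 with the cell line as a replicate block and 430 with the block and no scaling, a setting added after seeing the data. Higher calls numbered 13 and became 44 with median-of-ratios scaling, 28 with the block and 22 with the block and no scaling. Leaving out 1 library gave between 3 and 5 lower and between 0 and 5 higher calls, and in these fits the lone sample is assumed to vary like the other group. The median log2 difference was -0.06, and -0.16 without scaling, with or without the block. It turned to 0.020 with median-of-ratios scaling and ran from -0.17 to 0.053 with 1 library left out, turning without the EpiSC5 OL library. The share at gene ends was 76.2% within 500 bp, 81.8% within 2000 bp and 84.4% for any annotated gene. All 29 called regions whose differences are printed kept their direction in all 14 alternatives, and all 29 were called with the block. Of these 29, 7 lost the call with 50 bp added, 7 in the best 50% of each list, 4 without scaling and 2 with median-of-ratios scaling. Depth limits every width, and the depth reached in each library was not given.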
